A study of Mus musculus with 12 samples.

Results

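The genes described here are those of the proteasome together with Nfe2l1, in interscapular brown adipose tissue (iBAT) of mice. They were taken by name and type: protein-coding rows named Psm followed by a letter from a to g and a digit, and Nfe2l1 itself. The rule returned 50 of the 61210 genes listed, 49 by the Psm pattern and Nfe2l1. Of these, 48 were among the 16737 genes that passed the filter on low counts. Psma8, an α subunit of the testis, held 0 to 8 counts per library. Psmb11, the thymus-specific β subunit, held 0 or 1 count. Neither was tested. Psmc3ip met the name rule but encodes a recombination factor and not a proteasome subunit.

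Total RNA was sequenced from iBAT of wild type C57BL/6N mice that were 20 weeks old. One group was kept on the control diet (NCD) at 22 °C (RT), and a second was on NCD with 24 h at 4 °C (cold). The other two groups had received high-fat diet (HFD) for 12 weeks from the age of 8 weeks, at RT or in the cold. Each group had 3 libraries, labelled replicates 1 to 3, and replicate 3 of every group formed a separate batch. Nothing in the labels tells whether a library is 1 mouse, so p-values measure the spread between these libraries. Levels are given as CPM, the count of a gene over the library total scaled with TMM factors, times 1e6.

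The 26S proteasome degrades proteins that carry ubiquitin chains. Its 20S core is a barrel of outer α rings and inner β rings, and Psmb5, Psmb6 and Psmb7 carry the proteolytic sites. The 19S cap binds ubiquitin, removes it and feeds the unfolded substrate into the core through a ring of ATPases. Psmb8, Psmb9 and Psmb10 replace the proteolytic subunits in the immunoproteasome, which interferons induce for antigen presentation. Nfe2l1 (NRF1) is a transcription factor held in the endoplasmic reticulum membrane, released and processed through Vcp, Ngly1 and Ddi2, that drives proteasome genes when proteasome capacity is short. It is known to be needed in brown fat for adaptation to cold.

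Brown adipocyte markers were present in every library. Ucp1, the uncoupling protein, lay between 3790 and 18800 CPM over the 12 libraries, and all 9 brown adipocyte markers were tested. Summed skeletal muscle markers varied most, from 674 to 20900 CPM, and were highest within each group in replicate 2 on NCD and in replicate 3 on HFD. Libraries held 15136861 to 46740702 counts. In bulk tissue, fewer cells of a type and less RNA per cell cannot be told apart. The 10 most abundant genes took 23.7 to 25.7% of the counts on NCD at RT, 17.1 to 20.3% on NCD in the cold, 14.8 to 17.7% on HFD at RT and 10.5 to 11.7% on HFD in the cold, with the lipogenic genes Scd1 and Fasn among them.

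Levels were compared between genes as CPM per kb of the longest coding transcript. The order rests on this choice of length. It was 2846 bases for Psma3 and 2911 for Psma2, against 1042 to 1239 for the other tested α subunits. Nfe2l1 had the highest mean of the tested genes, at 145 CPM per kb over the 12 libraries. Psmb7 followed with 137, Psmb5 with 134, Psmb3 with 130 and Psmb6 with 116. By group, Nfe2l1 lay at 138 ± 7.39 CPM per kb on NCD at RT (SD, n = 3) and Psmb7 at 139 ± 12.5, so these neighbours did not differ beyond their spread there. On HFD at RT, Nfe2l1 was at 149 ± 3.24 and Psmb7 at 105 ± 3.48 CPM per kb.

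The constitutive rings and the cap ranged lower down to Psmd7, a scaffold subunit of the cap, with 22.4 CPM per kb. Assembly chaperones lay below them, from 16.3 for Psmg1 to 5.98 for Psmd9. The immunoproteasome subunits were at 10.2 CPM per kb for Psmb10, 5.91 for Psmb8 and 3.45 for Psmb9. Psmf1, the inhibitor PI31, stood at 5.68.

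**Figure D1:**
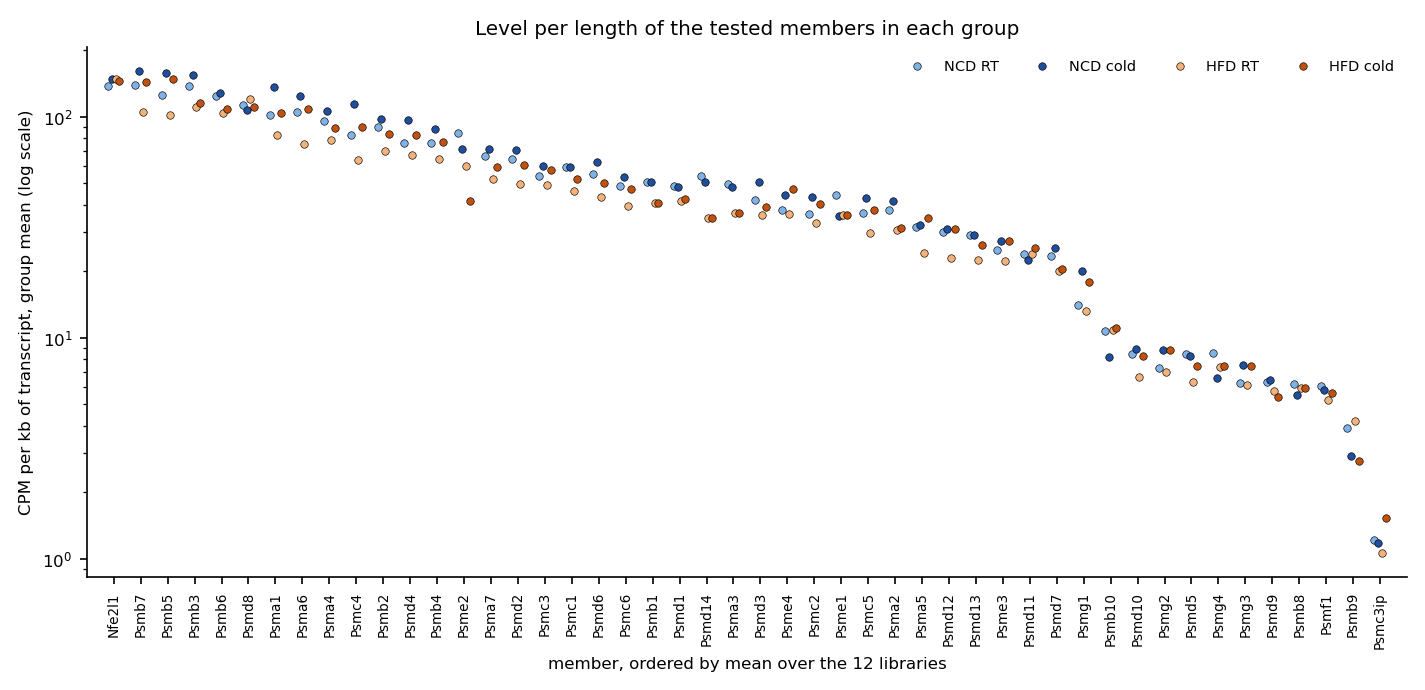
Level of the 48 tested members as CPM per kb of the longest coding transcript (log axis), ordered by the mean over the 12 libraries. Each point is the mean of 3 libraries, coloured by group. Nfe2l1 leads with a mean of 145, the constitutive subunits follow, and no group mean of an immunoproteasome subunit exceeds 11.1.

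Nfe2l1 binds with small Maf proteins to antioxidant response elements, so promoters were searched for the core TGACNNNGC on either strand. RefSeq promoters (GRCm38.p6, from 250 bases before to 50 after the start) were at hand for 42 of the 50 members. The core occurred in 6 of them, or 14.3%, against 17% of the tested coding genes and 14% of all genes in that promoter set. These 6 windows are printed because they hold the letters that the factor is known to bind, with the match in capitals, read 5′ to 3′ in the direction of the gene.
Psmb6, chr11:70525323-70525381, + strand: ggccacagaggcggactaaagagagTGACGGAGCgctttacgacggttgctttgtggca
Psmb5, chr14:54618009-54618067, - strand: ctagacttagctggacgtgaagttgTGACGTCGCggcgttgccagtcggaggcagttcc
Psmc6, chr14:45329574-45329630, + strand: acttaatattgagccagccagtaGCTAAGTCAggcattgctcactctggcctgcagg
Psmd12, chr11:107479278-107479314, + strand: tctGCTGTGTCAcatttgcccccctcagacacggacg
Psmd9, chr5:123228134-123228192, + strand: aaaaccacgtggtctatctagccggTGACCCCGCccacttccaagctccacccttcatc
Psme4, chr11:30771743-30771799, + strand: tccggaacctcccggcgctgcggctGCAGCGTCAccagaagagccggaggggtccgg
The match lay 9 bases before the start in Psmb6, 47 in Psmb5, 227 in Psmc6, 247 in Psmd12, 31 in Psmd9 and 7 in Psme4. The CCAAT box was found in 38.1% of the members and in 42.7% of the tested coding genes. A match describes the letters in these windows and is not evidence of binding.

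The first question was how 24 h of cold changed proteasome genes on each diet. On NCD, 2 members rose, Psma1 and Psmc4, and 32 of 48 had a positive difference, with a median log2 fold change of 0.11. On HFD, 5 members rose, namely Psma1, Psma5, Psma6, Psmc4 and Psme4, and 41 of 48 were positive, with a median of 0.22. Averaged over diets, 10 members rose. These were the core subunits Psma1, Psma6, Psmb4 and Psmb7, the cap subunits Psmc2, Psmc4 and Psmd4, the activator Psme4 and the core chaperones Psmg1 and Psmg2. Every call of a member for cold was a rise.

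Calls are edgeR quasi-likelihood tests at a Benjamini-Hochberg adjusted p under 0.05 over all 16737 genes. The background was a rise in 4.74% of all tested genes on NCD, in 6.90% on HFD and in 12.1% averaged over diets, against 4.17%, 10.4% and 20.8% of the tested members. The share on NCD thus lay near the background. With a replicate block (pairs of the same number within a diet), 8 instead of 5 members rose on HFD. Both counts rested on single libraries: leaving out 1 library gave 0 to 3 calls on NCD and 0 to 6 on HFD, and the calls averaged over diets went from 10 to 5 without replicate 2 of NCD at RT.

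The sums over the 31 constitutive 26S subunits tested also hold the untested Psma8, with at most 0.258 CPM per library. NCD at RT gave 3350, 2960 and 3190 CPM and NCD in the cold 3500, 3340 and 3640. The sums were 2620, 2600 and 2590 CPM on HFD at RT and 3020, 2800 and 3220 on HFD in the cold. The cold libraries lay above the RT libraries on HFD, and on NCD the groups overlapped. The median log2 fold change over these 31 genes was 0.14 on NCD and 0.22 on HFD, beside -0.01 and -0.04 over all tested genes. Within the batch of replicates 1 and 2 it was 0.10 on NCD and 0.20 on HFD, and between the single libraries of the other batch 0.18 and 0.25.

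In the ATPase ring of the cap, the 6 genes were positive for cold on both diets and 2 were called averaged over diets. Psmc4 (Rpt3) stood at 131, 115 and 112 CPM on NCD at RT, 173, 167 and 152 on NCD in the cold, 99.1, 98.2 and 76.8 on HFD at RT and 123, 135 and 128 on HFD in the cold. The cold libraries lay above the RT libraries of the same diet without overlap. Its log2 fold change averaged over diets was 0.48 ± 0.08 (SE), with an adjusted p of 0.00213, and it stayed called under every alternative run for that comparison other than a minimum fold. Psmc2 (Rpt1) was at 65.3, 61.7 and 66.8 CPM on NCD at RT, 84.4, 69.7 and 79.4 on NCD in the cold, 59.7, 53.1 and 65.1 on HFD at RT and 79.9, 67.1 and 69.3 on HFD in the cold. All 6 cold libraries exceeded all 6 RT libraries, and the averaged log2 fold change was 0.28 ± 0.08 (adjusted p = 0.0269).

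In the α ring, which gates the entry into the core, Psma1 rose on both diets. Its levels were 131, 108 and 127 CPM on NCD at RT, 168, 153 and 169 on NCD in the cold, 98.3, 104 and 96 on HFD at RT and 125, 122 and 128 on HFD in the cold. Within each diet the groups did not overlap, and the log2 fold changes were 0.42 ± 0.09 on NCD (adjusted p = 0.0216) and 0.33 ± 0.09 on HFD (adjusted p = 0.0438). With 1 library left out in turn, the call of Psma1 held in 7 of 12 fits on NCD and in 5 of 12 on HFD. Psma6 was at 106, 104 and 118 CPM on NCD at RT, 112, 123 and 151 on NCD in the cold, 78.2, 80.1 and 76.1 on HFD at RT and 105, 101 and 134 on HFD in the cold. Its rise was called on HFD, at 0.54 ± 0.14 (adjusted p = 0.0266), and on NCD the difference of 0.23 ± 0.13 was not. Psma5 also rose on HFD, by a log2 fold change of 0.53 ± 0.13, from 29.2, 30.3 and 30.1 to 45.6, 34.2 and 49.2 CPM. Near-identical transcripts of other genes exist for Psma5 and also for Psma4, Psmb3, Psmb5, Psmc1, Psmd2, Psmd11 and Psme2, so the counts of these 8 members are uncertain. Only the copies of Psmd2 (3 counts beside 57525) and Psmd11 (3596 beside 20830) are listed by name among the counted genes.

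Of the proteolytic subunits, Psmb7, the trypsin-like site, was at 176, 147 and 160 CPM on NCD at RT, 160, 188 and 211 on NCD in the cold, 121, 127 and 119 on HFD at RT and 155, 148 and 194 on HFD in the cold. It rose in the averaged comparison, with a log2 fold change of 0.33 ± 0.09 (adjusted p = 0.0288), which held in 5 of 12 fits with 1 library left out, while the NCD groups overlapped. Its exons overlap those of Nek6 on the opposite strand, and how the counting used strand is not given in the sources used here. Psmb5, the chymotrypsin-like site, was at 125, 96.8 and 116 CPM on NCD at RT, 145, 130 and 150 on NCD in the cold, 98.1, 80.6 and 97.5 on HFD at RT and 140, 87.2 and 174 on HFD in the cold. The averaged difference of 0.43 ± 0.15 did not pass (adjusted p = 0.056) but did with library totals (0.49 ± 0.15, adjusted p = 0.0392), and the HFD cold libraries spread from 87.2 to 174. Psmb6, the caspase-like site, differed by 0.05 ± 0.07 in the averaged comparison, with 104, 94.3 and 98.1 CPM on NCD at RT, 102, 94.9 and 110 on NCD in the cold, 79.9, 83.5 and 86.3 on HFD at RT and 77.4, 87.7 and 93.2 on HFD in the cold.

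Of the other β subunits, Psmb4 was at 96.2, 85.7 and 88.2 CPM on NCD at RT, 101, 106 and 105 on NCD in the cold, 73.2, 78.1 and 77 on HFD at RT and 87.8, 87.4 and 96.5 on HFD in the cold. The groups did not overlap within either diet, and its averaged rise was 0.23 ± 0.06 (adjusted p = 0.0179). Psmb2, with 88.8, 73.7 and 68.9 CPM on NCD at RT, 85.8, 85.5 and 81.6 on NCD in the cold, 65.6, 63.9 and 51.3 on HFD at RT and 71, 79.2 and 66 on HFD in the cold, was not called (0.19 ± 0.09, adjusted p = 0.145).

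In the non-ATPase part of the cap, the ubiquitin receptor Psmd4 (Rpn10) was at 148, 121 and 131 CPM on NCD at RT, 182, 170 and 159 on NCD in the cold, 111, 117 and 127 on HFD at RT and 166, 125 and 144 on HFD in the cold. It rose by 0.32 ± 0.09 on the log2 scale averaged over diets (adjusted p = 0.0207). Psmd6 (Rpn7) was at 79.4, 73.2 and 78 CPM on NCD at RT, 95.3, 78.9 and 85.2 on NCD in the cold, 60, 56.2 and 63.6 on HFD at RT and 65, 66.2 and 77.4 on HFD in the cold. Its difference of 0.19 ± 0.07 did not pass (adjusted p = 0.0842), and with TMM scaling Psmd4 was the only one of the 11 genes of this class called for cold. With library totals Psmd6 was also called averaged over diets (0.24 ± 0.07, adjusted p = 0.0319), and Psmd12 on HFD (0.55 ± 0.17, adjusted p = 0.0491).

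Outside the 26S particle, Psme4 (PA200), an activator cap of the core, lay at 248, 243 and 246 CPM on NCD at RT, 293, 274 and 291 on NCD in the cold, 235, 212 and 260 on HFD at RT and 299, 284 and 333 on HFD in the cold. The 6 cold libraries exceeded the 6 RT libraries, and the averaged log2 fold change was 0.30 ± 0.07 (adjusted p = 0.0127). Psmg1, which with Psmg2 holds the first α ring together, was at 15.7, 13.2 and 15.1 CPM on NCD at RT, 20.1, 19.7 and 22.8 on NCD in the cold, 16.9, 13.2 and 11.6 on HFD at RT and 17.4, 19.6 and 19.1 on HFD in the cold. It too separated all cold from all RT libraries and rose by 0.47 ± 0.10 on the log2 scale (adjusted p = 0.00723). Psmc2, Psme4 and Psmg1 were the 3 of 48 members with this separation. It was found in 5.72% of all tested genes, so the count of members lay near the background.

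Psmg2 rose by 0.30 ± 0.10 on the log2 scale (adjusted p = 0.0486), with 10.5, 9.47 and 8.62 CPM on NCD at RT, 11.6, 10.4 and 12.4 on NCD in the cold, 9.08, 9.51 and 8.7 on HFD at RT and 10.7, 10.4 and 13.3 on HFD in the cold. This call was kept in 2 of 9 other settings and in 3 of 12 fits with 1 library left out. Of the cap chaperones, none of 3 was called by edgeR in the averaged comparison, and none had an unadjusted p under 0.05. Psmd10 (gankyrin) had 12.8, 11.4 and 12 CPM on NCD at RT, 11.9, 11.2 and 15.3 on NCD in the cold, 9.28, 8.94 and 10.3 on HFD at RT and 11.7, 11.4 and 12.5 on HFD in the cold. Psmd5 had 37.3, 34.4 and 39.7 CPM on NCD at RT, 38.4, 28.8 and 41.7 on NCD in the cold, 30.5, 28.3 and 24.4 on HFD at RT and 33.9, 29.8 and 34.3 on HFD in the cold. Within a diet, cold lay above RT without overlap for 8 of 48 members on NCD and 17 of 48 on HFD. Of all tested genes, 15.2% and 15.9% did so, and the count on NCD lay near this background.

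**Figure D2:**
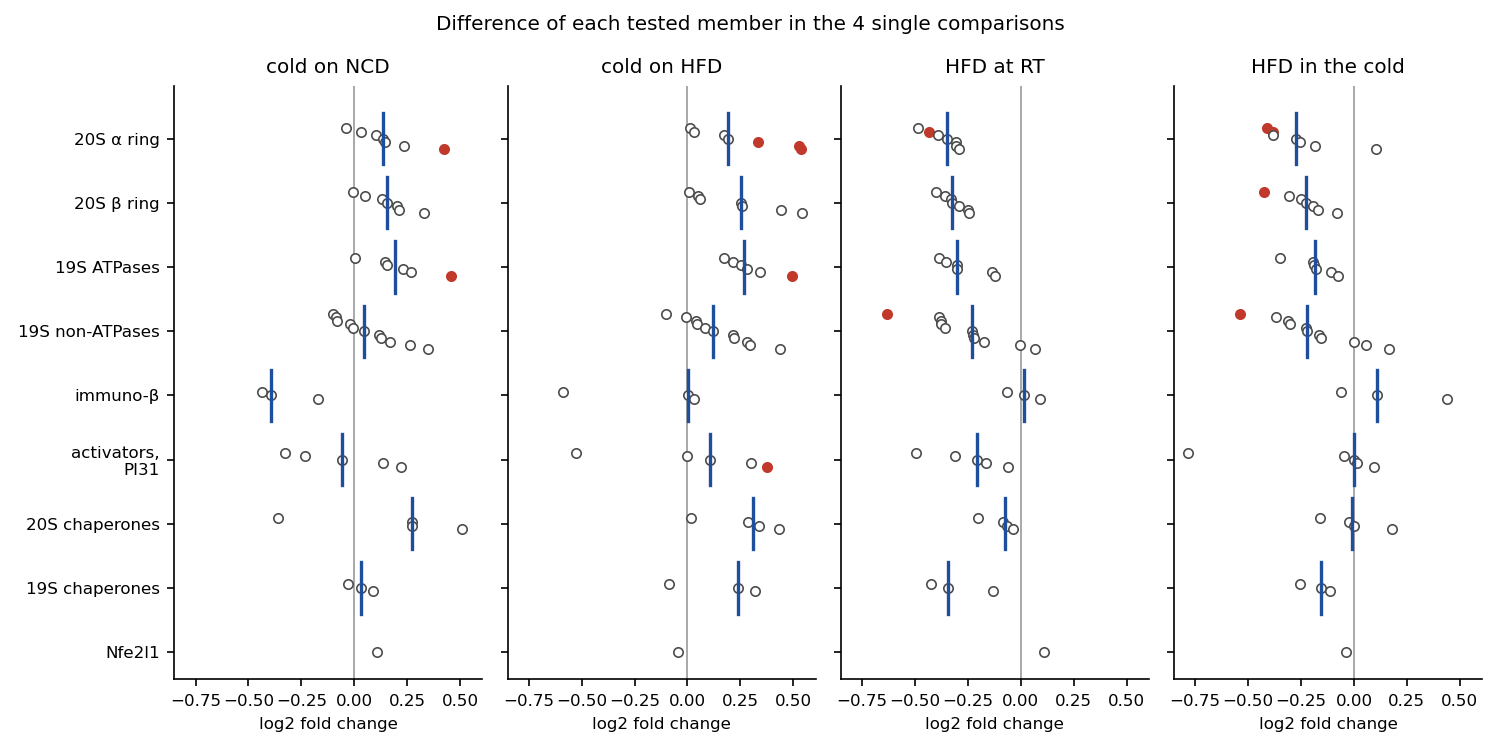
Log2 fold change of each tested subunit, chaperone and Nfe2l1 in 4 panels, for cold on either diet and for HFD at either temperature. Each circle is 1 gene, red where called at an adjusted p under 0.05, and blue bars are class medians. The core and cap classes lie mostly right of 0 in the cold panels and left of 0 in the HFD panels, and the immunoproteasome β medians are -0.39, 0.00, 0.02 and 0.11 from left to right.

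The second question was the effect of HFD. At RT, 2 members fell, Psma3 and Psmd14, but 44 of 48 had a negative difference, with a median log2 fold change of -0.29. In the cold, Psma1, Psma2, Psmb3 and Psmd14 fell and 38 of 48 were negative, with a median of -0.17. Averaged over temperatures, a comparison added after the data had been seen, 18 members fell. They comprised 6 of 7 tested α subunits (Psma1, Psma2, Psma3, Psma4, Psma6 and Psma7), 4 of 7 constitutive β subunits (Psmb1, Psmb3, Psmb4 and Psmb6), 3 of 6 ATPases (Psmc1, Psmc4 and Psmc6), 4 of 11 non-ATPase subunits (Psmd2, Psmd3, Psmd6 and Psmd14) and the activator Psme2. Every call of a member for HFD was a fall.

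Of all tested genes, 1.15% fell at RT, 3.07% in the cold and 7.34% averaged over temperatures, against 4.17%, 8.33% and 37.5% of the tested members. Over the 31 constitutive subunits the share averaged over temperatures was 54.8%, and 29 of them were negative. The HFD libraries lay below the NCD libraries without overlap for 28 of 48 members at RT and 17 in the cold, against 12.9% and 13.1% of all tested genes. Over all temperatures, the 6 HFD libraries lay below the 6 NCD libraries for 6 members, against 2.44% of all tested genes. They were Psma2, Psma3, Psmb1, Psmb3, Psmb6 and Psmd14. HFD at RT shares the NCD RT libraries with cold on NCD and the HFD RT libraries with cold on HFD. HFD in the cold shares the NCD cold libraries with cold on NCD and the HFD cold libraries with cold on HFD. These comparisons are therefore not independent.

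These falls are relative to the median gene, and their size rested on the scaling. TMM factors were 0.896 to 0.952 on NCD and 1.03 to 1.15 on HFD. Scaled to library totals alone, the median over all tested genes was higher on HFD by 0.22 at RT, 0.32 in the cold and 0.28 averaged over temperatures on the log2 scale. The median of the 31 constitutive subunits was then -0.12, 0.08 and -0.02, beside -0.31, -0.22 and -0.27 with TMM. The distance between these subunits and the median gene was -0.30 averaged over temperatures under either scaling. A change of scaling moves all genes of a comparison nearly alike. This distance could therefore hardly change and is no check on the falls. With library totals, 2 members fell in the averaged comparison, Psmd14 and Psme2, and 5 rose, namely Nfe2l1, Psmb10, Psmd8, Psmd11 and Psme4. For cold, the constitutive subunits lay 0.14 above the median gene on NCD under both scalings. On HFD they lay 0.25 above it with TMM and 0.26 with library totals. These distances too could hardly change with the scaling.

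Psmd14 (Rpn11), the deubiquitinase that removes the chain before degradation, showed the largest difference between diets among the constitutive subunits. It stood at 86.7, 75.5 and 87.8 CPM on NCD at RT, 80.6, 70.5 and 82.3 on NCD in the cold, 55.3, 56.3 and 49.5 on HFD at RT and 47.4, 53.8 and 59.2 on HFD in the cold. The HFD libraries lay below the NCD libraries at both temperatures, with log2 fold changes of -0.63 ± 0.11 at RT (adjusted p = 0.0155), -0.54 ± 0.11 in the cold (adjusted p = 0.0214) and -0.59 ± 0.08 averaged (adjusted p = 0.00117). The averaged call held under every alternative, at -0.34 ± 0.08 with library totals (adjusted p = 0.00854).

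Psma3 was at 157, 130 and 137 CPM on NCD at RT, 145, 128 and 139 on NCD in the cold, 105, 111 and 97.2 on HFD at RT and 100, 107 and 109 on HFD in the cold. No HFD library reached an NCD library, and the averaged log2 fold change was -0.41 ± 0.07 (adjusted p = 0.0045). Psmb3 was at 116, 98.6 and 104 CPM on NCD at RT, 123, 109 and 123 on NCD in the cold, 87.5, 87.3 and 79.5 on HFD at RT and 81.7, 89.9 and 92.9 on HFD in the cold, with an averaged log2 fold change of -0.38 ± 0.07 (adjusted p = 0.00615). Psma2 differed by -0.36 ± 0.07 and Psmb1 by -0.32 ± 0.06 on the log2 scale, while neither was called for cold. Under library totals the averaged falls of Psma2, Psma3, Psmb1 and Psmb3 were no longer called.

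Psma1, Psma6, Psmb4 and Psmc4 were called for both factors, higher in the cold averaged over diets and lower on HFD averaged over temperatures. Their averaged HFD differences on the log2 scale were -0.34 ± 0.07, -0.33 ± 0.09, -0.22 ± 0.06 and -0.37 ± 0.08. With 1 library left out in turn, the HFD calls of Psma1 and Psmc4 held in 12 of 12 fits, that of Psmb4 in 3 and that of Psma6 in 2. Those of Psmb6 and Psmc6 held in 2, that of Psmd2 in 3 and that of Psmd3 in 4. With library totals, the difference of Psmb4 turned to 0.02. The other 6 members that rose in the cold were not called for HFD. Their averaged HFD differences were -0.29 ± 0.09 for Psmb7, -0.20 ± 0.09 for Psmd4, -0.12 ± 0.08 for Psmc2, 0.02 ± 0.07 for Psme4, -0.12 ± 0.10 for Psmg1 and -0.03 ± 0.10 for Psmg2. The 4 core chaperones ranged from -0.12 to -0.01 for HFD averaged over temperatures.

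**Figure D3:**
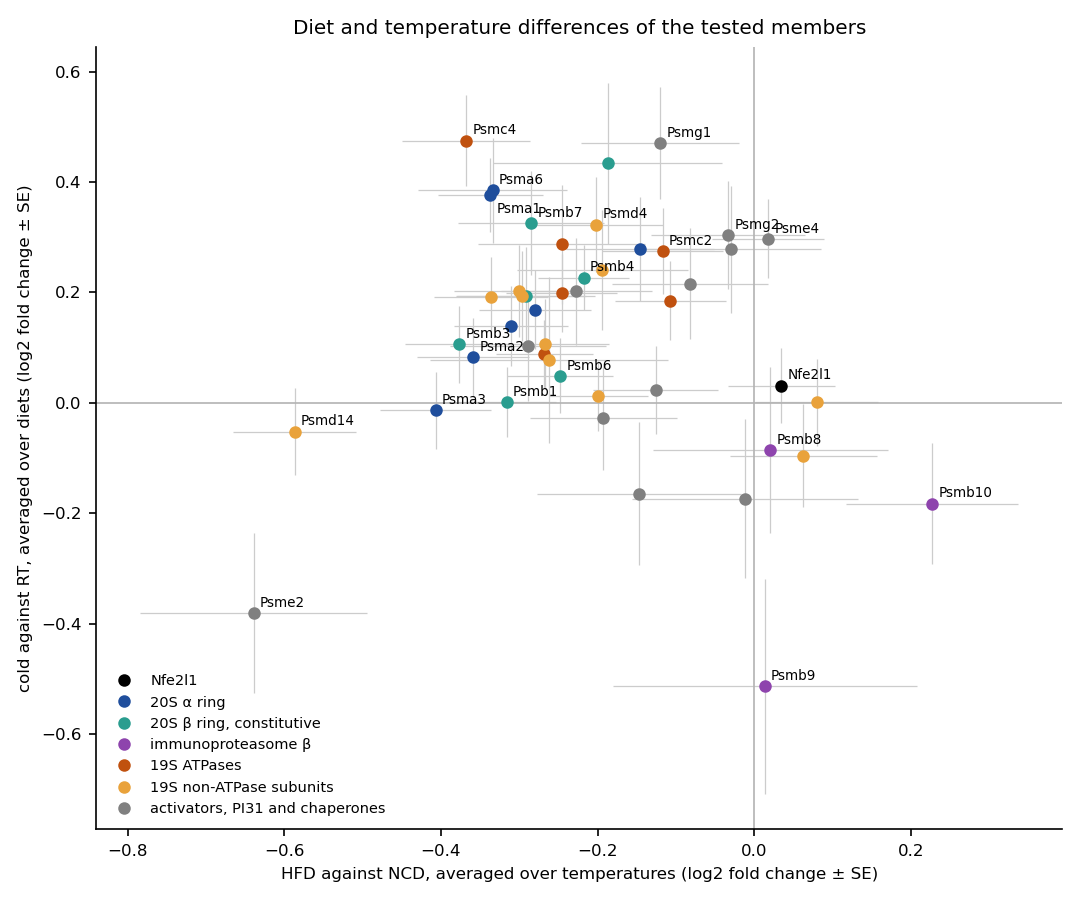
Each point is 1 tested member with its log2 fold change for HFD averaged over temperatures (horizontal, ± SE) and for cold averaged over diets (vertical, ± SE), coloured by class. Most core and cap subunits lie upper left, Psmd14 lies far left at -0.59 and -0.05, and Nfe2l1 lies near the origin. Both axes use the same 12 libraries with TMM scaling.

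The separate batches gave the same sign for the constitutive subunits. Over the 31 genes, the median log2 difference for HFD at RT was -0.31 in the batch of replicates 1 and 2 and -0.34 between the single libraries of the other batch. In the cold it was -0.24 and -0.20. Summed endothelial markers ran from 512 to 627 CPM on NCD at RT, 725 to 808 on NCD in the cold, 702 to 958 on HFD at RT and 944 to 1070 on HFD in the cold, and 2 of 6, Kdr and Pecam1, were called higher on HFD averaged over temperatures. Summed brown adipocyte markers ran from 6530 to 8240, 20300 to 23800, 8950 to 11200 and 16200 to 19700 CPM in the same order of groups. In the cold averaged over diets 5 of 9 were called higher and 2 were negative. On HFD averaged over temperatures 4 of 9 were positive and 5 negative, and 1 was called lower. General adipocyte markers summed to 9340 to 11300, 12000 to 14000, 7530 to 9650 and 7490 to 9760 CPM. On HFD averaged over temperatures 7 of 7 were negative, 1 was called lower, and the median log2 fold change was -0.31. In the cold averaged over diets 5 of 7 were negative, with 2 called lower and 1 higher. On NCD in the cold, Ucp1 gave 16400 of the mean brown sum of 21700 CPM, and Fabp4 gave 8760 of the mean adipocyte sum of 13100. Red blood cell markers summed to 1210 to 1770, 1110 to 1580, 793 to 1170 and 986 to 1270 CPM. On HFD averaged over temperatures 5 of 5 were negative, 1 was called lower, and the median was -0.47. No defining marker of the brown adipocyte or endothelial list was at 0, and the part of these 4 lists in the proteasome differences was not tested. With the summed muscle markers as a term, 8 members rose in the cold averaged over diets and 20 fell on HFD averaged over temperatures.

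The immunoproteasome subunits were a small share of the summed CPM of the proteolytic subunits. CPM is not divided by length here. The longest coding transcripts of Psmb8, Psmb9 and Psmb10 have 1311 to 1628 bases, against 798 to 1160 for Psmb5, Psmb6 and Psmb7. Psmb8, Psmb9 and Psmb10 made up 7.32 ± 0.637% of the summed CPM of the 6 proteolytic subunits on NCD at RT, 5.23 ± 0.655% on NCD in the cold, 9.05 ± 1.67% on HFD at RT and 6.78 ± 0.90% on HFD in the cold (SD, n = 3). By library these shares were 6.89, 7.03 and 8.05% on NCD at RT, 5.98, 4.88 and 4.81% on NCD in the cold, 9.18, 10.7 and 7.32% on HFD at RT and 5.89, 7.69 and 6.76% on HFD in the cold. The cold libraries lay below the RT libraries on NCD, and on HFD the groups overlapped. At RT the summed CPM of Psmb8, Psmb9 and Psmb10 was 29.9, 25.6 and 32.8 on NCD and 30.2, 34.7 and 23.9 on HFD. That of Psmb5, Psmb6 and Psmb7 was 405, 338 and 374 on NCD and 299, 291 and 303 on HFD. The higher mean share on HFD at RT thus went with lower sums of Psmb5, Psmb6 and Psmb7, while the immunoproteasome sums overlapped.

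None of the 3 genes was called in a comparison of cold or of HFD by edgeR with TMM scaling. Psmb10 was at 14, 12.9 and 15.2 CPM on NCD at RT, 10.7, 9.65 and 11.7 on NCD in the cold, 14.7, 15.6 and 12.4 on HFD at RT and 12.6, 13.2 and 17.6 on HFD in the cold. Cold lay below RT on NCD without overlap, with a log2 fold change of -0.39 ± 0.16 (adjusted p = 0.161), and on HFD the difference was 0.03 ± 0.16. In the cold, HFD lay above NCD without overlap at 0.44 ± 0.16 (adjusted p = 0.123), and this was called with library totals, at 0.74 ± 0.16 (adjusted p = 0.014).

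Psmb9 was at 5.85, 3.78 and 6.27 CPM on NCD at RT, 4.19, 3.71 and 3.88 on NCD in the cold, 5.54, 7 and 4.46 on HFD at RT and 2.57, 3.61 and 5.03 on HFD in the cold. Its averaged cold difference was -0.51 ± 0.19 (adjusted p = 0.0851), and its exons overlap those of Tap1 on the opposite strand. Psmb8 was at 10.1, 8.89 and 11.3 CPM on NCD at RT, 11, 7.83 and 8.24 on NCD in the cold, 9.98, 12.1 and 7.06 on HFD at RT and 8.15, 10.1 and 10.8 on HFD in the cold. Its largest difference was -0.17 ± 0.21, for cold on NCD, and an antisense gene overlaps its exons. Summed immune cell markers ran from 56.1 to 70.2 CPM on NCD at RT, 37.1 to 55 on NCD in the cold, 55.9 to 85.5 on HFD at RT and 50.1 to 108 on HFD in the cold. Of the 15 markers 10 were tested, and the neutrophil marker Ly6g was at or near 0 throughout. Of the 10 tested, Cd68 and S100a8 were called higher for cold on HFD, S100a8 for cold averaged over diets and Itgam for HFD in the cold. Cd68 averaged 4.17 CPM on HFD at RT (4.32, 5.59 and 2.6) and 13.6 CPM on HFD in the cold (16.7, 4.89 and 19.2). Replicate 2 in the cold thus lay within the RT range. S100a8 was low, at 0.322, 0.261 and 0.141 CPM on HFD at RT and 3.96, 0.837 and 0.583 on HFD in the cold. On HFD averaged over temperatures 10 of 10 were positive, with a median log2 fold change of 0.56, and edgeR called 0 of them, with 5 at an unadjusted p under 0.05. Their part in these values was not tested.

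The PA28 activator, made of Psme1 and Psme2, is likewise induced by interferon. Psme2 (PA28β) was at 90.9, 73.1 and 79.4 CPM on NCD at RT, 79.2, 53.7 and 73.8 on NCD in the cold, 61.9, 60.5 and 50.4 on HFD at RT and 27.4, 44.9 and 47.7 on HFD in the cold. HFD lay below NCD at each temperature without overlap, and the averaged log2 fold change was -0.64 ± 0.14 (adjusted p = 0.0161), the largest fall of a member. Psme1 (PA28α) differed by -0.15 ± 0.13. Psme2 is nearly identical to Psme2b, with 99.4% identity over 82.5% of its transcript. Psme2b is not listed by name among the counted genes. How reads of both were assigned is not known, so the values of Psme2 are uncertain.

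**Figure D4:**
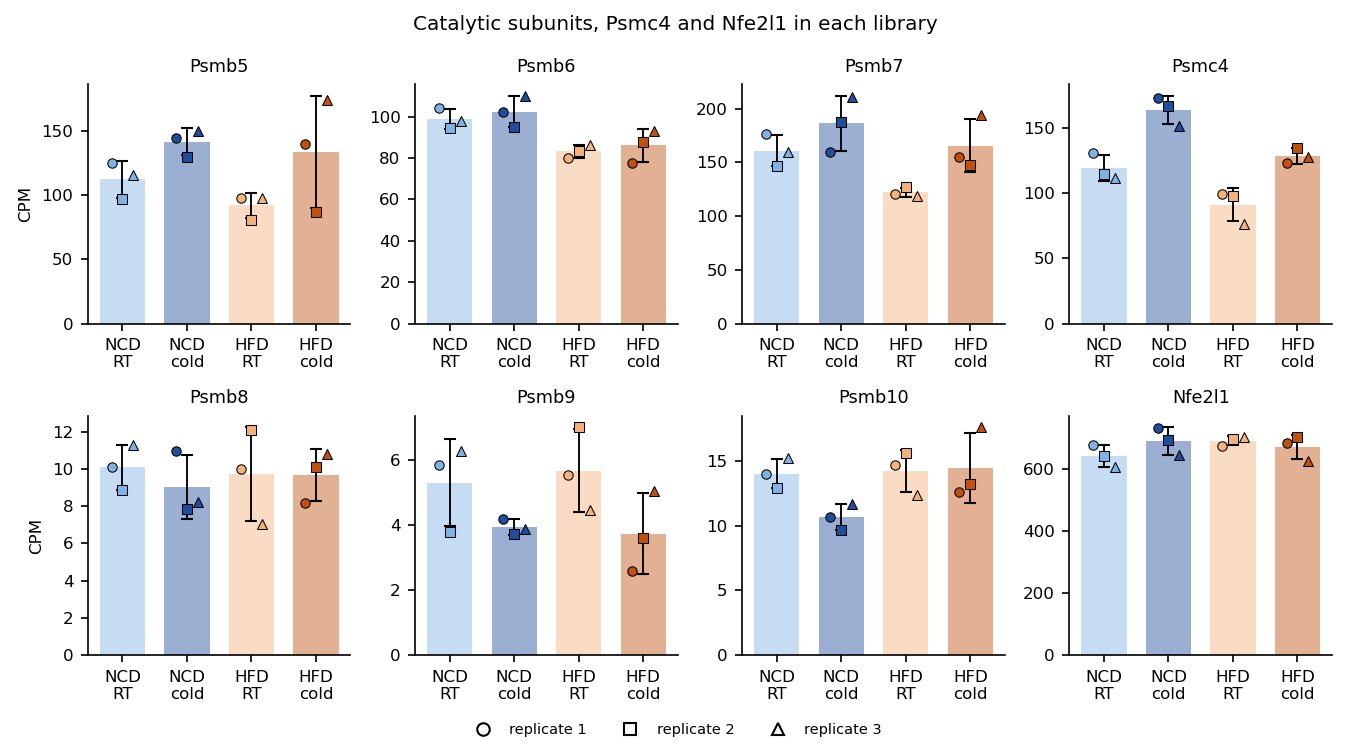
CPM of the proteolytic subunits Psmb5, Psmb6 and Psmb7, the ATPase Psmc4, the immunoproteasome subunits Psmb8, Psmb9 and Psmb10, and Nfe2l1. Bars are means of 3 libraries with SD and symbols mark replicates. Psmc4 is higher in the cold on each diet, the immunoproteasome panels reach no more than 17.6 CPM, and Nfe2l1 stays between 608 and 733 CPM.

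Nfe2l1 was not called in any comparison with TMM scaling. Its levels were 677, 643 and 608 CPM on NCD at RT, 733, 695 and 645 on NCD in the cold, 676, 697 and 705 on HFD at RT and 684, 705 and 628 on HFD in the cold. The groups overlapped in every comparison. Its log2 fold changes were 0.11 ± 0.10 for cold on NCD, -0.04 ± 0.10 for cold on HFD, 0.11 ± 0.10 for HFD at RT and -0.04 ± 0.10 for HFD in the cold, and the lowest adjusted p of these was 0.597. With library totals, its averaged HFD difference was 0.28 ± 0.06 (adjusted p = 0.0101), the same size as the 0.28 of the median gene. The data hold transcripts only, and the processing of the Nfe2l1 protein is not measured by them.

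Of 18 tested genes for Nfe2l1 processing, partners and relatives, 1 rose in the cold averaged over diets, a share below the background of 12.1%. It was Ngly1, which removes glycans from Nfe2l1, at 68.4, 66.7 and 69.7 CPM on NCD at RT, 96.5, 89.6 and 98.9 on NCD in the cold, 64.7, 66.6 and 72.4 on HFD at RT and 65.7, 83.1 and 74.4 on HFD in the cold. The groups were apart on NCD, with a log2 fold change of 0.48 ± 0.10, and overlapped on HFD. On HFD averaged over temperatures, Derl1 (-0.75 ± 0.12), a channel component for retrotranslocation, and Keap1 (-0.30 ± 0.08) fell, and Mafk (0.61 ± 0.16), a small Maf partner, rose, against backgrounds of 7.34% falling and 6.18% rising.

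Of 10 other proteasome subunits and associated factors, 2 rose and 1 fell in the cold averaged over diets, against 12.1% and 9.05% of all tested genes. The ubiquitin ligase Ube3c (0.35 ± 0.07) and the thioredoxin-like Txnl1 (0.24 ± 0.07) rose, and the deubiquitinase Uchl5 (-0.34 ± 0.10) fell. On HFD averaged over temperatures 5 of the 10 fell, against 7.34% of all tested genes, among them the core maturation factor Pomp (-0.38 ± 0.07) and the ubiquitin receptor Adrm1 (-0.38 ± 0.08). Pomp was the one also called at RT.

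Of 14 genes for ubiquitin, p97 cofactors and shuttle factors, 4 rose in the cold averaged over diets, against 12.1% of all tested genes. Among them were the shuttle factors Rad23b (0.39 ± 0.07) and Ubqln1 (0.34 ± 0.07) and the p97 cofactor Nploc4 (0.43 ± 0.10). On HFD averaged over temperatures 2 fell, against 7.34% of all tested genes, among them Ufd1 (-0.40 ± 0.06), the partner of Nploc4.

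Of 19 genes for interferon and antigen processing, 3 fell in the cold averaged over diets and 18 were negative, with a median log2 fold change of -0.32. The background was a fall in 9.05% of all tested genes. They were the peptide trimming enzyme Erap1 (-0.82 ± 0.10), the peptide loading factor Tapbp (-0.64 ± 0.12) and the interferon-induced GTPase Irgm1 (-0.48 ± 0.13). Erap1 was at 57.4, 53.8 and 55.7 CPM on NCD at RT, 36.4, 26.7 and 30.6 on NCD in the cold, 52.7, 49.9 and 44.1 on HFD at RT and 22.6, 31 and 30.7 on HFD in the cold. Cold lay below RT on each diet without overlap.

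The last question was whether the cold response depended on diet. The interaction was called for 0 of 48 members by edgeR and 0 by DESeq2, and 1 member had an unadjusted p under 0.05 with each tool, Psma5 with edgeR. In all tested genes edgeR called 0%, with 1091 at an unadjusted p under 0.05, and DESeq2 called 61 of 15554 genes. The difference between the cold responses, HFD less NCD, was 0.50 on the log2 scale for Psma5, and its median over the 31 constitutive subunits was 0.06. A larger cold response on HFD was therefore not shown for any member by this test.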

How the data were processed

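Adapters had been removed with cutadapt, and the authors quantified reads with salmon against GENCODE M22 with RNAcentral on GRCm38, where similar transcripts share reads by estimate. The deposited gene values are salmon's estimated counts, not normalised and without decimals, 15136861 to 46740702 per library. Groups followed the labels. Genes were kept with filterByExpr (minimum count 10), scaled with TMM and fitted over all 12 libraries as 4 group means in edgeR 4.0.16 (R 4.3.3, quasi-likelihood, Benjamini-Hochberg adjustment). SE is the log2 fold change over the square root of its F statistic. The members and lists were chosen with earlier results of these data known. Named with every library were Nfe2l1, the proteolytic subunits and the 2 genes of each other class with the smallest p for cold averaged over diets. Other members and list genes could be named where called, and Psmd14, Psma3 and Psmb3 were given per library after their values were seen. Alternatives were DESeq2 1.42.0, its size factors, library totals, no filter, a fold minimum, batch, muscle markers and replicate blocks as terms, batch 1 alone, 6 libraries, and each library left out. Same-numbered RT and cold libraries of a diet deviated together (r = 0.155 to 0.456 in 6 pairs), and this pairing rests on these correlations alone. Libraries of different diets and numbers reached r = 0.418, for replicate 2 of NCD in the cold with replicate 3 of HFD at RT. The correlations therefore do not establish a pairing. Positions and lengths came from GENCODE M21. Exons of 14 members overlap another gene and 8 members have a transcript of another gene with at least 95% identity over 50% of their length. Some items of the lists are not reported here. The fit was tested on simulated data, with 50 genes drawn from all tested genes changed at each fold. For cold on NCD it called 0% of them at 1.25-fold, 0% at 1.5-fold and 32% at 2-fold. Averaged over diets it called 0%, 18% and 56%. The simulated data gave 49 calls in all for cold on NCD and 79 averaged over diets, against 1242 and 3539 in the real data. Adjustment for multiple testing was therefore stricter in the simulation, and its shares do not give the sensitivity for these members. A member that was not called may still differ by such a size.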

Additional observations from a re-analysis of the deposited data

How the results depend on the processing

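The counts of called members were less stable than the medians. For cold on NCD the 2 calls became 0 without a filter, in batch 1 alone and at an absolute log2 fold change over 0.5, 1 with muscle markers as a term, and 0 to 3 with 1 library left out (0 or 1 without any library of NCD or replicates 1 or 3 of HFD in the cold). For cold on HFD the 5 calls became 9 with DESeq2, 11 with library totals, 3 without a filter, 8 with batch, with the replicate block within diet or with the replicate block across all groups, 0 in batch 1 alone or with 6 libraries, 2 with the fold minimum, and 0 to 6 with 1 library left out (0 to 2 without any library of HFD at RT or replicates 1 or 3 of HFD in the cold). For cold averaged over diets the 10 calls became 17 with batch or the replicate block across all groups, 15 with the replicate block within diet or with library totals, 3 in batch 1 alone (2 higher, 1 lower), 0 with the fold minimum, and 5 to 14 with 1 library left out, the 5 without replicate 2 of NCD at RT. For HFD at RT the 2 calls became 13 with DESeq2, 1 with library totals, without a filter or with the fold minimum, 0 in batch 1 alone, and 0 to 2 with 1 library left out, replicate 3 of NCD in the cold being the one whose removal kept 2. For HFD in the cold the 4 calls became 8 with DESeq2, 1 without a filter or with the fold minimum, 0 in batch 1 alone or with 6 libraries, and 0 to 5 with 1 library left out (0 or 1 without replicate 3 of NCD at RT, 1 or 3 of NCD in the cold, 2 of HFD at RT or any of HFD in the cold). With library totals 3 members were called there, all higher. For HFD averaged over temperatures the 18 calls became 7 with library totals, 9 without a filter, 1 in batch 1 alone, 2 with the fold minimum, and 11 to 20 with 1 library left out, the 11 without replicate 1 of HFD in the cold. The constitutive median moved beyond the spread between libraries with library totals, to 0.32 for cold on HFD, -0.12 for HFD at RT, 0.0789 for HFD in the cold, -0.0246 averaged over temperatures and 0.17 for the interaction. With 1 library left out it was -0.30 to -0.14 for HFD in the cold, the -0.14 without replicate 2 of HFD in the cold, and 0.0399 to 0.146 for the interaction, the 0.146 without replicate 1 of HFD in the cold. For Psmb4, library totals turned the averaged HFD difference to 0.024. Over 41 calls of single members and 850 alternatives, 590 kept the call, 259 lost it and 1 reversed. The block changed no other count of members by over 1.5 times. The causes were not tested. The fits of batch 1 alone and of 6 libraries also hold fewer libraries.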
